A study of Rattus norvegicus with 6 samples.

Results

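Satellite glia markers were followed in the dorsal root ganglia (DRG) of rats with chronic constriction injury (CCI) of the sciatic nerve. The set held 7 genes, Gfap, Glul, Fabp7, Slc1a3, Apoe, S100b and Cdh19, out of 43350 gene rows in the table. Each gene was read from the row carrying its symbol, a protein-coding row being preferred and then the row with most reads, and only Cdh19 had more than 1 row. All 7 passed the filter of a mean FPKM (reads scaled to row length and to sequencing depth) of 0.5 or more, which 26663 rows passed.

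The rats were male Sprague-Dawley. Loose ligatures were placed around the left sciatic nerve of CCI rats, and the same nerve of Sham rats was exposed and left untied. Ipsilateral lumbar DRG (L4 to L6) were collected on day 11 from 3 rats per group, 1 rat per library. Total RNA was depleted of ribosomal RNA and sequenced, and the comparison asks which transcripts of the ganglion differ after nerve injury. The sample labels list no treatment for the Sham rats and mention a pooled sample in the library step, whereas the methods of the study describe nerve exposure and individual rats, and the latter reading was used.

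Between 75423546 reads (CCI 3) and 87615743 reads (Sham 1) were counted in a library. Sham 1 stood apart in 8 skeletal muscle markers, whose summed level was 424 CPM (counts per library of standard size) there. It was 12.3 CPM in Sham 2, 54.4 CPM in Sham 3, and 25.5, 14.2 and 9.03 CPM in CCI 1, 2 and 3. Some values are therefore also given without Sham 1.

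Satellite glia wrap the cell bodies of sensory neurons in a thin sheath. They take up glutamate and potassium from the narrow space around the neuron, turn glutamate into glutamine and are coupled to each other by gap junctions. After peripheral nerve injury their content of the intermediate filament protein GFAP is widely used as a sign of their reaction. The markers are shared with other cells to differing degrees, as S100b and Cdh19 are also made by Schwann cells, Gfap by non-myelinating Schwann cells and Apoe by macrophages.

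The label was checked against the data first. Every member was detected in all 6 libraries, and Apoe, S100b, Glul, Fabp7, Cdh19, Gfap and Slc1a3 ranked 7, 21, 390, 3117, 5089, 7290 and 10010 by mean FPKM among 17712 protein-coding rows with any count. The rank of Cdh19 depends on its long row, described below. All 14 of the other satellite glia genes examined, among them Kcnj10, Gja1, Sox10 and Hmgcs1, passed the filter. Of 8 markers of astrocytes and oligodendrocytes of the central nervous system, Aqp4, Mobp, Olig2 and Fgfr3 lay below it, and the list summed to between 13.4 and 15.6 CPM in any library.

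Of the 7 members, 1 was called higher in CCI and 0 lower at the study's limits. These were an unadjusted p under 0.05, here from the quasi-likelihood test of edgeR, together with a log2 fold change of 0.58 or more in either direction. Over all rows tested 686 (2.57%) were called higher and 336 (1.26%) lower. The gene was Gfap, and the 6 others were not called. Since a ganglion is a mixture of cells, fewer cells of a type and less RNA per cell cannot be told apart in these values.

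With an unadjusted p under 0.05 at any fold change there were 2 members, Gfap and Cdh19, against 10.7% of all rows. By edgeR with Benjamini-Hochberg adjustment over all rows, 0 members had an adjusted p under 0.05, against 25 rows (0.0938%), and with DESeq2 1 member did, Gfap, against 747 rows. The number of such rows by edgeR changed when a library was left out. It was 61, 6 and 38 without CCI 1, 2 and 3, and 8, 28 and 17 without Sham 1, 2 and 3. Whether the same rows passed was not tested. Every CCI library lay above every Sham library for 2 members, against 8.63% of all rows, and every CCI library lay below every Sham library for 1 member, against 8.7%. The median log2 fold change was 0.03 over the members (between -0.0006 and 0.03 with a library left out) and 0.01 over all rows tested.

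**Figure D1:**
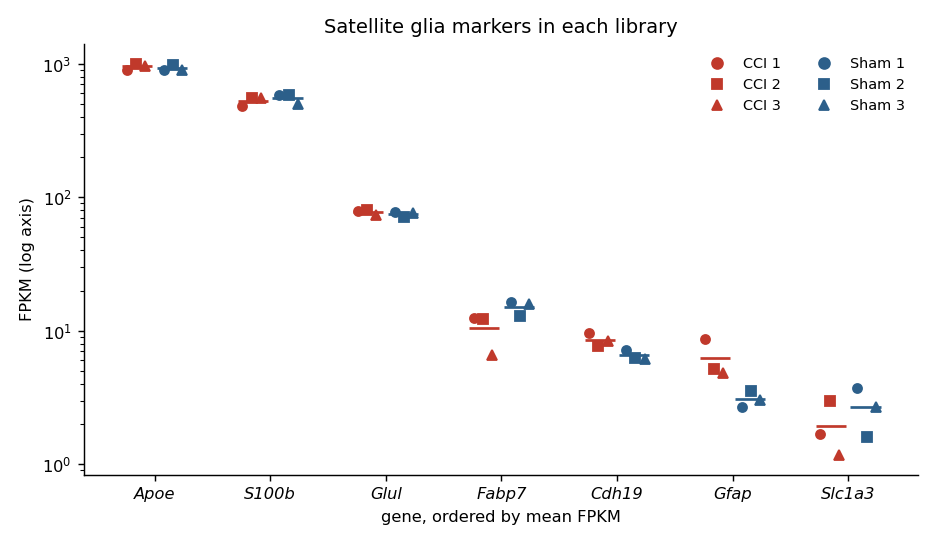
FPKM of each member on a log axis in the 6 libraries, with CCI in red and Sham in blue, a symbol for each replicate and short lines for the group means. The CCI and Sham points of Apoe, S100b, Glul and Slc1a3 overlap, those of Gfap and Cdh19 are separate with CCI above, and those of Fabp7 are separate with CCI below.

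Gfap encodes the glial intermediate filament protein. Its row lay on chromosome 10, 90990762 to 90999506, on the minus strand of the genome that the study calls V101. It measured 8.75, 5.21 and 4.85 FPKM in CCI 1, 2 and 3 and 2.70, 3.52 and 3.01 FPKM in Sham 1, 2 and 3. All CCI libraries were above all Sham libraries, and CCI 1 was well above the other CCI libraries. The counts behind these values ran from 953 in Sham 1 to 2853 in CCI 1.

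Gfap rose by a log2 fold change of 1.01 (SE 0.247), a 2.01-fold difference with a 95% interval of 1.34 to 3.03. Its unadjusted p was 0.00538 and its adjusted p 0.236 (edgeR quasi-likelihood, Benjamini-Hochberg), so the call did not hold after adjustment. The gene ranked 607 of the 26663 rows by p. Without CCI 1 the log2 fold change was 0.69 and stayed past the limits. Spread was unequal between groups, with a coefficient of variation of the CPM of 34.7% in CCI and 14.0% in Sham.

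Cdh19 encodes a cadherin found along the glia and Schwann cells of peripheral nerve. Its row lay on chromosome 13, 32344966 to 32471238, on the minus strand, and measured 9.67, 7.64 and 8.33 FPKM in CCI 1, 2 and 3. The Sham values were 7.18, 6.30 and 6.18 FPKM. Again the groups did not overlap and CCI 1 held the highest value, but the lowest CCI library was only just above the highest Sham library. The log2 fold change of 0.37 (SE 0.103, 95% interval 0.12 to 0.61) was below the limit of 0.58, with an unadjusted p of 0.0101 and an adjusted p of 0.282 (edgeR quasi-likelihood, Benjamini-Hochberg).

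The Cdh19 row joined 6 assembled transcripts, 1 of them annotated, over a length of 38893 bases that the counts and FPKM values imply. Its FPKM is therefore an average over a stretch far longer than the rows of the other members, of which the longest was 5840 bases. Another row with the symbol, with an implied length of 1340 bases on the opposite strand inside the same locus, gave a log2 fold change of 0.58 (SE 0.181), just short of the limit, with an adjusted p of 0.334 (edgeR quasi-likelihood, Benjamini-Hochberg). The library kit kept strand, but it is not stated whether counting used it. A further overlapping row, without a symbol and also on the opposite strand, held 7.31% as many reads as Cdh19.

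The start regions of Gfap, Cdh19 and Fabp7 are shown because these were the members whose groups did not overlap. They are RefSeq windows of 300 bases around the annotated gene start in the GRCr8 assembly, whose coordinates differ from those of the deposited table. All 7 symbols had windows in that set, 12 in total. Capitals mark matches, on either strand, to 8 short motifs. Of factors known from glia these were TGANTCA for the AP-1 family, TTCNNNGAA for the STAT family, AACAAT for the SOX family, with ACAAAG as another form of it, and TGGCA for the NFI family. Of general promoter elements they were the CCAAT box, then TATAAA for the TATA box, and lastly GGGCGG for the GC box. The windows were chr10:88361612-88361911 on the minus strand for Gfap, chr13:28533704-28534003 on the minus strand for Cdh19 and chr20:37669356-37669655 on the plus strand for Fabp7.
Gfap: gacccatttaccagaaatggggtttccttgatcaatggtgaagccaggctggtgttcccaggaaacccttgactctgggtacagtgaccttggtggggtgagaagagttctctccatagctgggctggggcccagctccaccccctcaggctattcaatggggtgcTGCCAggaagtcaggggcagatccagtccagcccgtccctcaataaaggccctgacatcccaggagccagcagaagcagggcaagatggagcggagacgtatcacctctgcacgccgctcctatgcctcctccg
Cdh19: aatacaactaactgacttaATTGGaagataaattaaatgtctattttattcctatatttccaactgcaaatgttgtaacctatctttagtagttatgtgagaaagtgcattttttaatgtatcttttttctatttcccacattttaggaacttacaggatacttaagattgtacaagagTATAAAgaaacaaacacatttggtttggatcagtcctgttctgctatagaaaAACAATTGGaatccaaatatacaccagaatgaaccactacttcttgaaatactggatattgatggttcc
Fabp7: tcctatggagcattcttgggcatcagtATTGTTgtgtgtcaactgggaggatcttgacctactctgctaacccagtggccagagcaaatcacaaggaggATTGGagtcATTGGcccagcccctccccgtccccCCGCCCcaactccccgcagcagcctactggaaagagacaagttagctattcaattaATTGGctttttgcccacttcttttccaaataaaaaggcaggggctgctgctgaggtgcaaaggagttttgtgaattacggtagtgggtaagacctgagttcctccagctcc

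The Gfap window held 1 match, to the NFI motif, which 48.0% of all 33469 windows held. The Cdh19 window held 4 matches and had a GC content of 30.0%, against 58.7% for Gfap, 51.3% for Fabp7 and a median of 51.7% over all windows. AACAAT was in the windows of Cdh19 and Fabp7 and in 11.7% of all windows, and in Cdh19 it overlapped a CCAAT match. The CCAAT box was in 37.5% of all windows, the TATA box in 14.2% and the GC box in 33.1%. ACAAAG, in 18.8% of all windows, was found among the members in those of Slc1a3. No member window held TGANTCA (7.33% of all windows) or TTCNNNGAA (8.87%). A match is a run of letters and not a shown binding site.

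**Figure D2:**
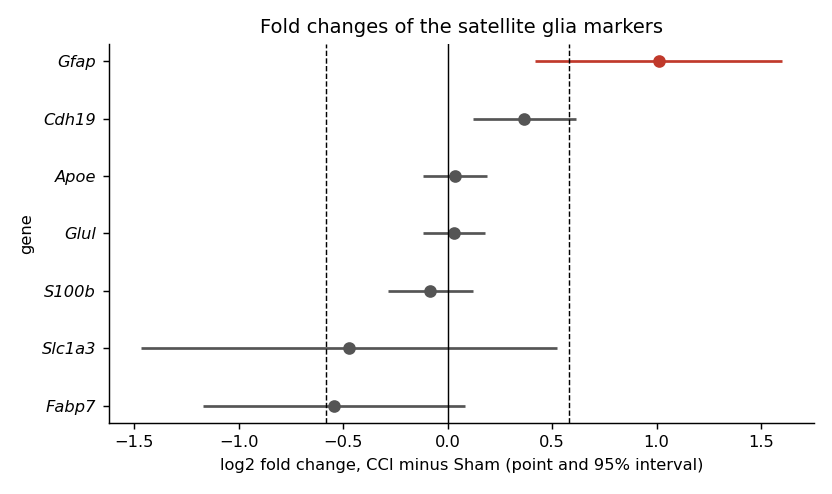
Log2 fold change of each member, CCI minus Sham, with its 95% interval as a line, and the limits of the study as dashed lines. Gfap, in red, is the member called, at 1.01, and the intervals of Apoe, Glul and S100b lie wholly between the dashed lines.

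The members that handle glutamate were Slc1a3, the glutamate transporter GLAST, and Glul, glutamine synthetase. Slc1a3 lay on chromosome 2, 57860834 to 57935363, on the minus strand, and measured 1.70, 2.96 and 1.17 FPKM in CCI 1, 2 and 3 and 3.73, 1.60 and 2.68 FPKM in Sham 1, 2 and 3. High and low libraries were present in both groups, with Sham 1 highest and CCI 3 lowest. The log2 fold change of -0.47 (SE 0.415) had a 95% interval from -1.47 to 0.52 and an adjusted p of 0.769 (edgeR quasi-likelihood, Benjamini-Hochberg). It was -0.91 without CCI 2 and -0.16 without Sham 1, so that the value rested on single libraries.

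Glul lay on chromosome 13, 71331052 to 71340229, on the plus strand. It measured 79.3, 80.7 and 73.1 FPKM in the CCI libraries and 77.2, 71.6 and 76.8 FPKM in the Sham libraries. The groups were interleaved and every library was within a narrow band. Glul had a log2 fold change of 0.03 (SE 0.062), and the 95% interval ran from 0.922-fold to 1.13-fold, so a difference of the size of the study's limit lay outside it.

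Of 12 other genes of glutamate and glutamine handling, 9 passed the filter and 0 were called, and their median log2 fold change was -0.08 (-0.05 without Sham 3). The most abundant were Glud1, glutamate dehydrogenase, at 61.9 ± 2.96 FPKM in CCI and 66.0 ± 1.41 FPKM in Sham, and the glutamine carrier Slc38a2, at 59.0 ± 2.23 and 63.0 ± 0.679 FPKM (SD, n = 3 each). For 3 of the 9 genes, Slc38a1, Slc38a2 and Glud1, all CCI libraries were below all Sham libraries, against 8.7% of all rows. The transporter Slc1a2, typical of astrocytes, was at 0.676 FPKM in CCI and 0.817 FPKM in Sham, lower than Slc1a3.

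Fabp7 and Apoe carry lipids, the former as a small cytosolic fatty acid binding protein and the latter as a secreted apolipoprotein. Fabp7 lay on chromosome 20, 40769586 to 40773349, on the plus strand. It measured 12.6, 12.3 and 6.54 FPKM in CCI 1, 2 and 3 and 16.6, 12.9 and 15.9 FPKM in Sham 1, 2 and 3. The groups did not overlap, but CCI 1 and CCI 2 were close to Sham 2, and CCI 3 was well below the rest. The log2 fold change of -0.55 (SE 0.261, 95% interval -1.17 to 0.08) was not called, with an unadjusted p of 0.0779 and an adjusted p of 0.537 (edgeR quasi-likelihood, Benjamini-Hochberg). Without CCI 3 it was -0.30.

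Apoe lay on chromosome 1, 80612895 to 80617057, on the minus strand. It measured 900.2, 1002 and 963 FPKM in CCI and 898, 971 and 893 FPKM in Sham. The groups overlapped, with CCI 2 and Sham 2 the highest libraries of their groups. Apoe had a log2 fold change of 0.04 (SE 0.064), and the 95% interval ran from 0.922-fold to 1.14-fold. The row held 0.160% of all counts.

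Among 9 other fatty acid binding proteins 4 passed the filter, 0 were called higher and 1 lower. This was Pmp2, a fatty acid binding protein of peripheral myelin, at 76.3 ± 23.1 FPKM in CCI and 120 ± 10.6 FPKM in Sham (SD, n = 3 each), with a log2 fold change of -0.67 (SE 0.203). The call for Pmp2 was lost without CCI 1, at a log2 fold change of -0.51, and without CCI 2, at -0.59. Fabp5 was at 130 ± 25.5 FPKM in CCI and 88.8 ± 3.50 FPKM in Sham, a log2 fold change of 0.53 (SE 0.142) that missed the limit and passed it without CCI 3.

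Of 13 genes of lipoprotein and cholesterol handling 10 passed the filter, with 1 called higher and 1 lower and a median log2 fold change of 0.11 (0.06, 0.04 and 0.05 without CCI 2, CCI 3 and Sham 3). Abca1, which loads cholesterol onto apolipoproteins, rose by a log2 fold change of 0.74 (SE 0.140). The call was lost without CCI 1, where the log2 fold change was 0.56. Abcg1, a related exporter, was at -0.58 (SE 0.208), on the limit itself, and its call was lost in 9 of 16 other settings. It stood at -0.31 without Sham 2 and at -0.74 without Sham 1. The most abundant genes, Apod and Clu, were at 346 and 224 FPKM in CCI and 299 and 223 FPKM in Sham and were not called. Adjusted p was over 0.05 for every gene of both lists (edgeR quasi-likelihood, Benjamini-Hochberg), whereas DESeq2 gave 2 fatty acid binding proteins and 1 gene of lipoprotein and cholesterol handling under it.

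S100b encodes a calcium-binding protein and lay on chromosome 20, 13130636 to 13142856, on the minus strand. It measured 479, 556 and 551 FPKM in CCI 1, 2 and 3 and 580.2, 578 and 502 FPKM in Sham 1, 2 and 3. CCI 1 was lowest and Sham 3 the next, so the groups overlapped. S100b had a log2 fold change of -0.08 (SE 0.084, 95% interval -0.28 to 0.12). Its end overlapped Dip2a on the opposite strand, whose row held 7.06% as many reads.

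In the S100 family 11 of 13 other genes passed the filter and 1 was called higher, S100a11, at 161 FPKM in CCI against 104 FPKM in Sham, a log2 fold change of 0.62 (SE 0.068) with an adjusted p of 0.0605 (edgeR quasi-likelihood, Benjamini-Hochberg) that was under 0.05 with DESeq2. The call of S100a11 was lost without CCI 1, where the log2 fold change was 0.57, and the family had 2 called higher without Sham 1 and 1 called lower without CCI 3. The most abundant of the family after S100b, S100a6 and S100a10, were not called, and the median log2 fold change of the 11 was -0.11 (-0.04 without Sham 1). Of 18 other cadherins 17 passed the filter and 0 were called (1 lower without CCI 3), and the median log2 fold change was -0.10. The most abundant were Cdh1 and Cdh2, at 59.6 and 25.2 FPKM in CCI and 66.7 and 26.7 FPKM in Sham.

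Gfap belongs to the intermediate filaments, of which 9 others were tested and 0 called, at a median log2 fold change of -0.27. Without Sham 1 the median was 0.14 and 2 were called lower, and 2 were called lower without CCI 2 and 1 without Sham 2. The neuronal filament Nefl, lowest of them by p, was at 920.1 FPKM in CCI and 1354 FPKM in Sham. Its log2 fold change of -0.57 (SE 0.059) was just short of the limit, with an adjusted p of 0.0457 that was between 0.0630 and 0.175 when any library was left out (edgeR quasi-likelihood, Benjamini-Hochberg). It passed both unadjusted limits without CCI 2 or without Sham 1. Prph was at 822 FPKM in CCI and 683 FPKM in Sham, and Nefh at 570 FPKM in CCI and 822 FPKM in Sham, with a log2 fold change of -0.54 (SE 0.0827).

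The order of levels was the same in both groups. By mean FPKM it ran Apoe, S100b, Glul, Fabp7, Cdh19, Gfap and Slc1a3. The place of Cdh19 depends on its implied row length of 38893 bases. By mean CPM, which is not scaled to length, Cdh19 (294 CPM) was above Glul (209 CPM) and Fabp7 (11.7 CPM). Apoe was 1.73 times S100b, S100b was 7.08 times Glul and Glul was 5.97 times Fabp7, and in these neighbours the lowest library of the higher gene was above the highest library of the lower gene. The remaining neighbours, Fabp7 and Cdh19, Cdh19 and Gfap, and Gfap and Slc1a3, overlapped over the 6 libraries.

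Summed over the 7 members, the level was 2964, 3169 and 3070 CPM in CCI 1, 2 and 3 and 3010, 3106 and 2870 CPM in Sham 1, 2 and 3. The groups overlapped, and Apoe and S100b made up 78.1% to 84.5% of the sum. Without these genes the sum was 649, 564 and 551 CPM in CCI against 537, 480 and 498 CPM in Sham. That remainder was higher in every CCI library, as 8.63% of all rows were, and most of it was Cdh19 (331 of 588 CPM on average in CCI and 257 of 505 CPM in Sham) with Glul. Cdh19 and Gfap, both part of it, were each higher in every CCI library, so the remainder is not a separate result.

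Ratios within a library do not depend on how libraries were scaled. Per 100 reads of Glul there were 16.3, 9.52 and 9.79 reads of Gfap in CCI 1, 2 and 3 and 5.16, 7.26 and 5.78 in Sham 1, 2 and 3. Per 100 reads of S100b the Gfap reads numbered 4.51, 2.31 and 2.17 in CCI and 1.15, 1.51 and 1.48 in Sham. Neither ratio overlapped between groups, and the CCI means stood at 1.95 and 2.17 times those of Sham. Gfap alone did not overlap, and Glul and S100b had log2 fold changes of 0.03 and -0.08. These ratios therefore restate the Gfap values, and the share of such ratios over all rows was not counted. Per 100 reads of Cdh19 the difference was smaller, 7.47 ± 1.71 in CCI and 4.90 ± 0.951 in Sham (SD, n = 3 each), and CCI 3 at 6.02 was close to Sham 2 at 5.78.

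**Figure D3:**
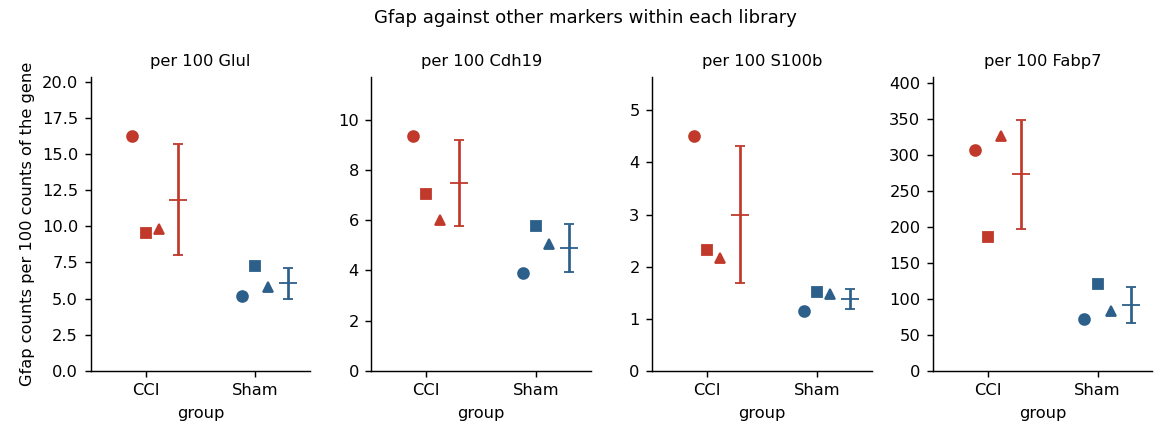
Reads of Gfap per 100 reads of Glul, Cdh19, S100b and Fabp7 in each library, with CCI in red, Sham in blue, a symbol for each replicate, and mean and SD of 3 libraries beside them. All CCI points are above all Sham points in each panel, and CCI 3 and Sham 2 are nearest to each other per 100 reads of Cdh19.

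Fabp7 went the other way against Glul. There were 5.31, 5.12 and 3.00 reads of Fabp7 per 100 reads of Glul in CCI 1, 2 and 3 and 7.19, 6.05 and 6.95 in Sham 1, 2 and 3, without overlap. Per 100 reads of Apoe the Fabp7 values of the groups overlapped, since CCI 1 (0.747) was above Sham 2 (0.712). Cdh19 per 100 reads of S100b was 39.1 ± 8.10 in CCI and 28.3 ± 2.00 in Sham (SD, n = 3 each), and these did not overlap either. Fabp7 and Cdh19 were each without overlap alone, so the ratios without overlap are not separate results.

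Among 21 pairs of members, Pearson's r of log2 CPM over n = 6 libraries was above 0.7 for 2, Gfap with Cdh19 (0.871) and Fabp7 with Slc1a3 (0.799). When each library was taken as its deviation from its group mean, Glul varied with Fabp7 (0.947) and with Slc1a3 (0.871), Fabp7 with Slc1a3 (0.764), and Apoe with S100b (0.710), whereas Gfap and Cdh19 stood at 0.548. The lowest values were -0.786 for Apoe with Cdh19 and -0.614 for Gfap with S100b. CCI 3 was the lowest CCI library for Glul, Fabp7 and Slc1a3, and Sham 2 was the lowest Sham library for the same genes. These values share libraries and scaling factors and describe 6 points each.

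Genes outside the set with the most similar profiles were sought among 6952 protein-coding rows of 5 FPKM or more on average. For Gfap these were Meis3 (r = 0.996), Get1 (0.995) and Sod2 (0.995), and for Cdh19 Hist2h2aa2 (0.990), Smox (0.983) and Man2a2 (0.980), each over n = 6 libraries. For Fabp7 they were Kcnq5 (0.984), Cfdp1 and Exoc3, for Slc1a3 LOC103690996 (0.994), Snrnp200 and Rnf20, and for Glul Top3b (0.983), Baz1b and Ormdl2. For Apoe they were Zfpl1 (0.990), Slc35f5 and Bmerb1, and for S100b Pcmtd1 (0.992), Cnot10 and Fkbp3. With so few libraries high values were common, as 274 rows exceeded 0.9 with Gfap and 25 with Slc1a3.

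The members also share annotation, and how often all rows carry the same terms was not counted. Of 28 Gene Ontology terms that the table gives to at least 2 of them, cytoplasm was carried by 5, and cell projection, membrane, neuronal cell body and plasma membrane by 4 each. Glial cell projection was given to Gfap and Glul, glutamate binding to Glul and Slc1a3, lipid binding to Fabp7 and Apoe, calcium ion binding to S100b and Cdh19, and response to wounding to Gfap and Slc1a3.

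**Figure D4:**
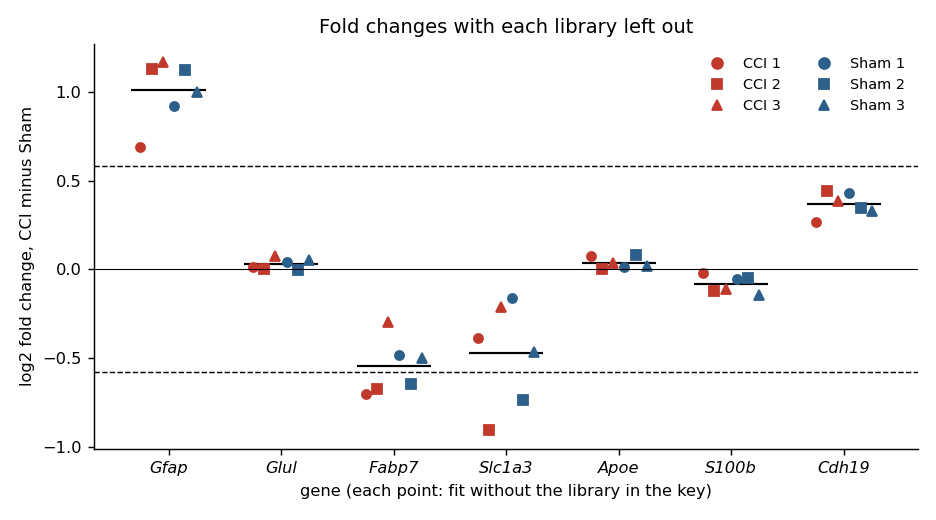
Log2 fold change of each member, CCI minus Sham, from fits that leave out the library shown by colour and symbol, with a black line for the fit of all 6 libraries and dashed lines for the limits of the study. Gfap stays above the upper limit in all 6 fits, from 0.69 to 1.17, Cdh19 stays between 0.27 and 0.44, and Slc1a3 moves most, from -0.91 to -0.16.

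Of the 14 other satellite glia genes tested 0 were called, log2 fold changes ran from -0.19 for the potassium channel Kcnj10 to 0.30 for Cadm2, and the median was 0.01, or between -0.05 and 0.04 with a library left out. The value of Cadm2 (SE 0.440) rested on Sham 3, at 28.1 CPM against 66.7 CPM or more in each other library. The gap junction gene Gja1 was at 8.76 FPKM in CCI and 9.28 FPKM in Sham, and Sox10, the transcription factor of peripheral glia, was at 8.98 and 9.75 FPKM. The most abundant was Hmgcs1, of cholesterol synthesis, at 198 ± 9.77 FPKM in CCI and 218 ± 12.2 FPKM in Sham (SD, n = 3 each). The list summed to between 3161 CPM (CCI 2) and 3337 CPM (CCI 3), with all Sham libraries in between.

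Schwann cells share S100b, Cdh19 and Gfap with satellite glia. Of 12 markers of myelinating Schwann cells 12 were tested and 0 called (1 higher without CCI 2), at a median log2 fold change of -0.14 (-0.06 without CCI 1 and -0.24 without CCI 3), and they summed to 6857, 7607 and 9339 CPM in CCI 1, 2 and 3 and to 9544, 8650 and 8347 CPM in Sham 1, 2 and 3. Pmp22 was at 629.9 FPKM in CCI and 684 FPKM in Sham. CCI 1, highest in Gfap and Cdh19, was lowest in this sum. Of 8 markers of non-myelinating and repair Schwann cells 6 were tested and 0 called, Ngfr and L1cam having the highest mean FPKM. Olig1 and Artn lay below the filter, whereas Shh, Sox2, Ngfr, Scn7a, L1cam and Ncam1 passed it. The part of Schwann cells in the values of the shared markers was not tested.

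Of 12 macrophage markers tested 7 were called higher and 0 lower, led by C1qa (log2 fold change 1.13, SE 0.323), C1qb (1.12), Cx3cr1 (1.11), C1qc (0.98), Lyz2 (0.98) and Cd68 (0.87). Adjusted p was under 0.05 for 0 of the 12 by edgeR quasi-likelihood with Benjamini-Hochberg adjustment and for 7 with DESeq2. The list summed to 511, 378 and 362 CPM in CCI 1, 2 and 3 and to 236, 215 and 248 CPM in Sham 1, 2 and 3, with Lyz2 the most abundant gene and none of the 12 at 0. CCI 1 was the highest library here as it was for Gfap, whereas Sham 2 was the lowest here and the highest Sham library for Gfap. Apoe, which macrophages also make, had its lowest CCI value in CCI 1. Their part in the Gfap difference was not tested.

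The nerve injury markers are genes that injured sensory neurons switch on. All 7 were called higher, with Npy (log2 fold change 6.14, SE 0.356), Gal (4.49), Atf3 (3.47), Sox11 (1.95), Jun (1.06) and Gap43 (1.02) among them. They summed to 711, 487 and 419 CPM in CCI 1, 2 and 3 and to 182, 188 and 175 CPM in Sham 1, 2 and 3, with Gap43 the most abundant. Adjusted p was under 0.05 for 3 of them (edgeR quasi-likelihood, Benjamini-Hochberg), Npy, Atf3 and Gal. That count was 0 without Sham 1, 1 without CCI 2, Sham 2 or Sham 3, and 4 without CCI 1 or CCI 3, and with DESeq2 it was 7. Their part in the Gfap difference was not tested either.

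**Figure D5:**
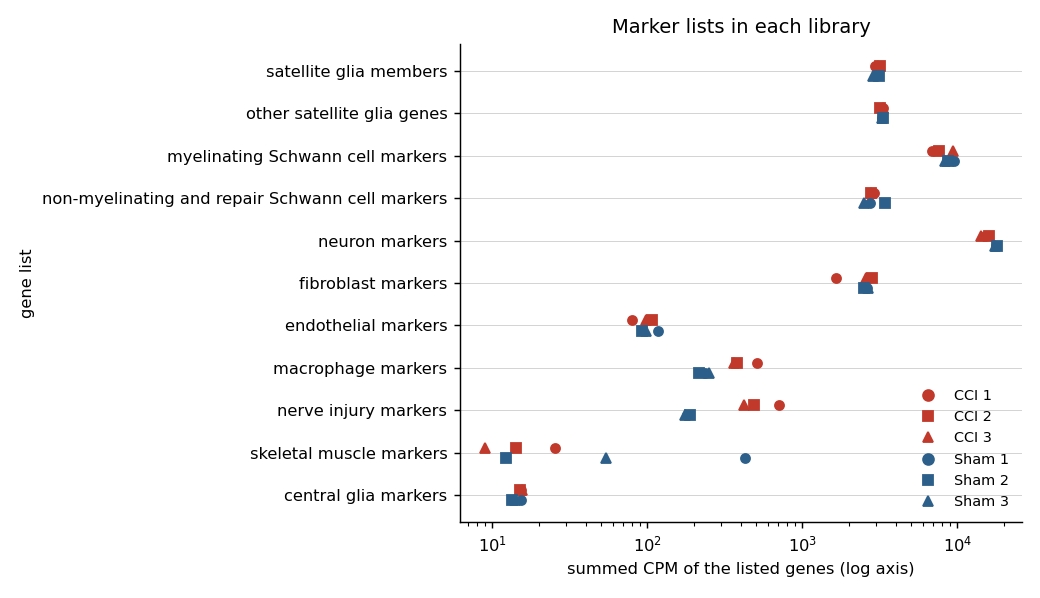
Summed CPM of the genes of each marker list in the 6 libraries on a log axis, with CCI in red, Sham in blue and a symbol for each replicate. CCI points are above Sham points for macrophage and nerve injury markers and below them for neuron markers. The points of both satellite glia lists overlap, and Sham 1 stands apart at 424 CPM in the skeletal muscle list.

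Of 10 neuron markers 0 were called, and 2 were called lower without CCI 2 or without Sham 1. The sum of these markers was lower in every CCI library, at 15007, 15997 and 14222 CPM in CCI 1, 2 and 3. In Sham 1, 2 and 3 these markers summed to 17892, 18005 and 17419 CPM. Their median log2 fold change was -0.26, with Tubb3 at 1388 FPKM in CCI and 1109 FPKM in Sham and Nefl as given above. Fibroblast markers (6 tested, Dcn and Col3a1 most abundant) and endothelial markers (4 tested, Cdh5 and Tek most abundant) had 0 calls, and the fibroblast sum was 1654 CPM in CCI 1 against 2487 to 2810 CPM in the other 5 libraries. Of the central glia genes 4 were tested, with Mog and Slc6a11 the most abundant, and 0 called. Of 5 housekeeping genes 0 were called, and Actb and Ppia were at 536 and 495 FPKM in CCI and 495 and 485 FPKM in Sham.

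Of 8 skeletal muscle markers 5 were called lower, Tnni2, Ckm, Mylpf, Actn3 and Acta1, whereas 1 was without Sham 1, without CCI 2 or without CCI 3, and 8 were without Sham 2. With limma 0 were called. Acta1 had 7943 reads in Sham 1, 334 in Sham 2 and 1164 in Sham 3, and 591, 340 and 329 in CCI 1, 2 and 3. Without Sham 1 the log2 fold change of Gfap was 0.92 and that of Cdh19 0.43.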

How the data were processed

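RNA of ipsilateral lumbar DRG was sequenced from 3 CCI and 3 Sham rats. According to the study's methods, clean reads were aligned by the authors to a rat genome named V101, then assembled into merged transcripts, and the submitters' processing notes name HISAT2 2.0 and StringTie 1.3.0. The count values are whole reads per row that the authors deposited without normalization, and it is not stated whether strand was used in counting. The FPKM values were also deposited by the authors, with 0.0001 standing for a count of 0. Rows lacking a symbol took 5.37% to 5.72% of each library and were kept in the fit.

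Rows whose FPKM averaged 0.5 or more (26663 rows) were tested on their counts with edgeR 4.0.16 (TMM factors between 0.988 and 1.01, quasi-likelihood test) in R 4.3.3, with Benjamini-Hochberg adjustment over all of these rows. Calls used the study's limits, that is, an unadjusted p under 0.05 together with a log2 fold change of 0.58 or more in either direction. CPM values use TMM-scaled library sizes, and standard errors and 95% intervals come from the same fit. The smallest two-sided p of an exact permutation test of 3 against 3 is 0.1, so no such test was used. No 2 libraries agreed within sampling noise.

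The members and the gene lists were chosen with earlier results of these data known. Named genes were the 7 members, and of every other list its called genes, up to 6, and the 2 with the highest mean FPKM. Slc38a1, Slc1a2, Nefh, Kcnj10, Cadm2, Gja1 and Sox10 were named outside that rule after their values were seen, and some values that the rule called for are not reported here. The 3 most similar rows of a member were ranked by Pearson's r of log2 CPM with 0.5 added to each count. Alternatives were RLE factors, library totals alone, DESeq2 1.42.0, limma 3.58.1 on log2(FPKM + 0.1) and log2(FPKM + 1), no filter, an FPKM filter of 1, protein-coding rows alone, summed rows of a symbol, a replicate block and leaving out each library. Start windows were taken from RefSeq (GRCr8) and motifs were matched on both strands. Python 3.11.15 with pandas 2.3.3, numpy 2.4.6, scipy 1.17.1 and matplotlib 3.10.9 was used.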

Additional observations from a re-analysis of the deposited data

How the results depend on the processing

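The number of members called at the study's limits was 1 higher and 0 lower in all 16 alternatives, and in each of them the log2 fold change of Gfap was between 0.69 and 1.17. Its adjusted p ran from 0.00195 (DESeq2) to 0.503 (without Sham 3), against 0.236 by edgeR with Benjamini-Hochberg adjustment over all 6 libraries. Members with an adjusted p under 0.05 numbered 0 except with DESeq2, which gave 1, and DESeq2 gave 747 such rows in the whole table. Protein-coding rows alone, 12988 in number, gave 332 rows higher, 112 lower and 71 with an adjusted p under 0.05. With limma on log2(FPKM + 1), 410 of all rows were called higher and 161 lower. Leaving out each library gave 6 to 61 rows with an adjusted p under 0.05. The log2 fold change of Glul ran from -0.0006 (without Sham 2, a change of sign) to 0.0754 (without CCI 3) when a library was left out. The direction of the 6 other members was kept in every alternative. The cause of these differences was not tested.

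With the replicate number as a replicate block 0 rows had an adjusted p under 0.05, against 25 by edgeR without the block (747 with DESeq2). At the unadjusted limits 617 rows were called higher and 318 lower with the block, and Gfap stood at 0.96. Deviations from the group means correlated at -0.01, -0.02 and -0.05 over the rows tested between libraries of the same number. No CCI library correlated best with the Sham library of its own number. The labels give the number alone, and whether libraries of the same number shared a batch was not tested. With 3 rats per group the 95% intervals of Slc1a3 and Fabp7 reach past the study's limit of -0.58 and that of Cdh19 past 0.58, and a difference of that size is not excluded for them.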
